A study of Mus musculus with 96 samples.

Results

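The oligodendrocyte lineage and myelin genes were followed across the hippocampus, thalamus and hypothalamus of mice after traumatic brain injury (TBI), with or without the angiotensin receptor blocker candesartan (CD). The 32 genes were taken by symbol from the count tables, which list 32594 genes, and all 32 passed the filter on low counts in every fit. They fall into 7 roles, from the receptors of the progenitor cell to the proteins of the finished myelin sheath. Adult male C57BL/6 mice of 8 to 10 weeks received controlled cortical impact through a craniotomy, or a sham operation that was a skin incision without craniotomy, so the injury comparisons set impact and craniotomy together against neither. Candesartan at 0.1 mg/kg or its vehicle (VH), saline with sodium carbonate, was given 6 h later to every mouse, sham mice included. The cohort killed at 3 days post-injury (dpi) was injected again at 24 and 48 h, and the cohort killed at 29 dpi received the same agents by osmotic pump. Mice were perfused with saline and the 3 regions were dissected from the injured side. From each group the 4 RNA samples of highest quality were sequenced. The 4 groups, named by operation and agent as TBI + VH, TBI + CD, Sham + VH and Sham + CD, gave 4 libraries each per region and time point, 96 in all.

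Oligodendrocytes wrap axons in myelin, the lipid-rich sheath that speeds conduction. They arise throughout life from progenitors that carry the growth factor receptor PDGFRA and the proteoglycan NG2, the product of Cspg4. A progenitor that leaves the cycle passes through a committed stage, marked by the receptor GPR17, before it makes myelin proteins and becomes a mature cell. Transcription factors of the SOX, OLIG and NKX families and the myelin regulator MYRF steer these steps. White matter and its oligodendrocytes are known to be vulnerable to head trauma, and progenitors are known to respond to injury nearby.

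Library totals ran from 6663629 to 38589791 counts, with a median near 24708400. The hippocampal libraries of 3 dpi, on which most results below rest, lay between 19683802 and 27452743. Levels are given as CPM, counts per 1000000 of a library's effective total, and means are ± SD over 4 libraries. A gene was called higher or lower where edgeR's quasi-likelihood test gave a Benjamini-Hochberg false discovery rate (FDR) under 0.05 over all genes tested and the absolute log2 fold change passed 0.32, a fold of 1.25. The labels do not tie libraries to mice, so the p-values measure the spread between these libraries. In dissected tissue, fewer cells of a type and less RNA per cell cannot be told apart.

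The members' own levels matched the label of brain tissue that holds myelin. In Sham + VH at 3 dpi they took 0.893% of the counts in the thalamus, 0.626% in the hippocampus and 0.578% in the hypothalamus. Per kilobase of exon, Mbp (myelin basic protein) was the most abundant member in all 3 regions, with 347 ± 118 CPM per kb in the hippocampus, and Mobp came next with 129 ± 45.8. The transcription factor gene Zfp488 was the least abundant there at 0.929 ± 0.250 CPM per kb.

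Sham libraries of 3 dpi differed among themselves in these genes, and this sets the precision of what follows. Among the 4 hippocampal Sham + VH libraries, replicate 1 had the lowest value of 29 members and replicate 3 the highest of 27, against 25.7% and 30.4% of all genes. Summed over the 10 myelin structural members, the 4 libraries held 2661, 4570.4, 6521 and 4751 CPM. Their choroid plexus RNA differed as well, as given below. The members' median coefficient of variation in Sham + VH at 3 dpi was 29.7% for hippocampus, 18.1% for thalamus and 41.7% for hypothalamus. At 29 dpi these were 9.72%, 11.3% and 8.53%. Pdgfra was the least variable member in the hippocampus at 3 dpi, with a coefficient of variation of 5.72%, and Enpp6 the most, with 55.5%.

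In the hippocampus at 3 dpi, 12 of the 32 members rose in TBI + VH and none fell, while DESeq2 also called St18 lower. The receptor of committed precursors, Gpr17, and the secreted lipid and iron carriers Apod and Trf rose the most, to 2.50, 2.59 and 2.35 times the Sham + VH level. Of the 8 transcription factors 4 rose, while of the 10 myelin structural genes only Cldn11 did. The progenitor genes Pdgfra and Cspg4 were not called. Over all genes tested 10.7% were called in this comparison and 8.99% were called higher, beside 12 of 32 members. The median log2 fold change was 0.41 over the members and -0.01 over all genes.

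**Figure D1:**
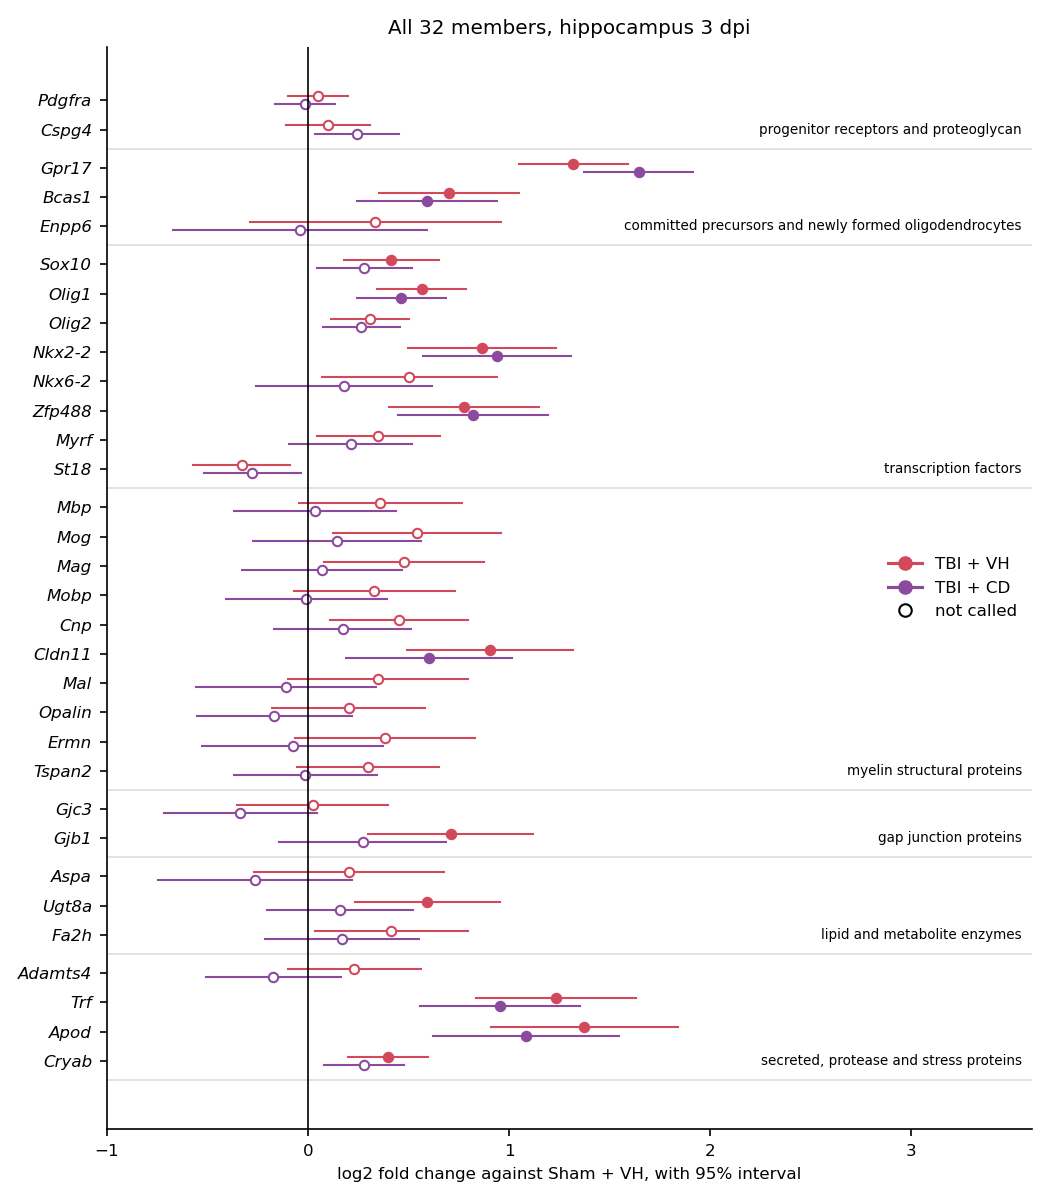
Log2 fold change against Sham + VH, with 95% intervals, of each of the 32 members in the hippocampus at 3 dpi, arranged by role, for TBI + VH (red) and TBI + CD (purple), with filled circles for called members and open circles for the rest. Gpr17, Trf and Apod lie furthest to the right at 1.32, 1.23 and 1.37 for TBI + VH, and Pdgfra lies at 0.05. The myelin structural genes have wide intervals, Cldn11 included, and of these only Cldn11 is called.

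Pdgfra, the receptor for platelet-derived growth factor that keeps progenitors dividing, was not called, and its groups overlapped. Its values were 65.9, 60.2, 69.0 and 65.8 CPM in Sham + VH and 67.7, 62.5, 69.8 and 69.8 CPM in TBI + VH, and all 16 hippocampal libraries of 3 dpi lay between 57.5 and 71.7. The log2 fold change was 0.05, with a 95% interval of -0.10 to 0.20. Cspg4, which pericytes also express, gave 32.6 ± 2.75 CPM in Sham + VH and 34.9 ± 2.39 in TBI + VH, with an interval of -0.11 to 0.31.

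Gpr17, a G protein-coupled receptor that committed precursors switch on and mature cells switch off, gave the smallest FDR of all members. Sham + VH libraries held 56.7, 68.7, 79.1 and 75.5 CPM and TBI + VH libraries 167, 155, 206 and 170.3 CPM. Every injured library exceeded every sham library, and the lowest of them stood well clear of the highest sham value. The log2 fold change was 1.32 ± 0.13 (SE, FDR = 1.75e-06). Set against Pdgfra in the same library, Gpr17 had 107 ± 14.2 counts per 100 Pdgfra counts in Sham + VH and 259 ± 24.2 in TBI + VH. In the 20 groups of the other regions and of 29 dpi, this ratio had means between 90.7 and 132.

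Bcas1, which marks newly formed oligodendrocytes that begin to myelinate, also rose. It was at 89.1, 150.3, 206 and 160.1 CPM in Sham + VH and 266, 235, 259.7 and 223 CPM in TBI + VH. The groups did not overlap, though the highest sham library, replicate 3, came close to the lowest injured library. The log2 fold change was 0.70 ± 0.17 (SE, FDR = 0.00722). Enpp6, a choline phosphodiesterase gene that marks the same stage, averaged 5.98 ± 3.31 and 7.53 ± 0.792 CPM and was not called, with a 95% interval of -0.29 to 0.96.

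**Figure D2:**
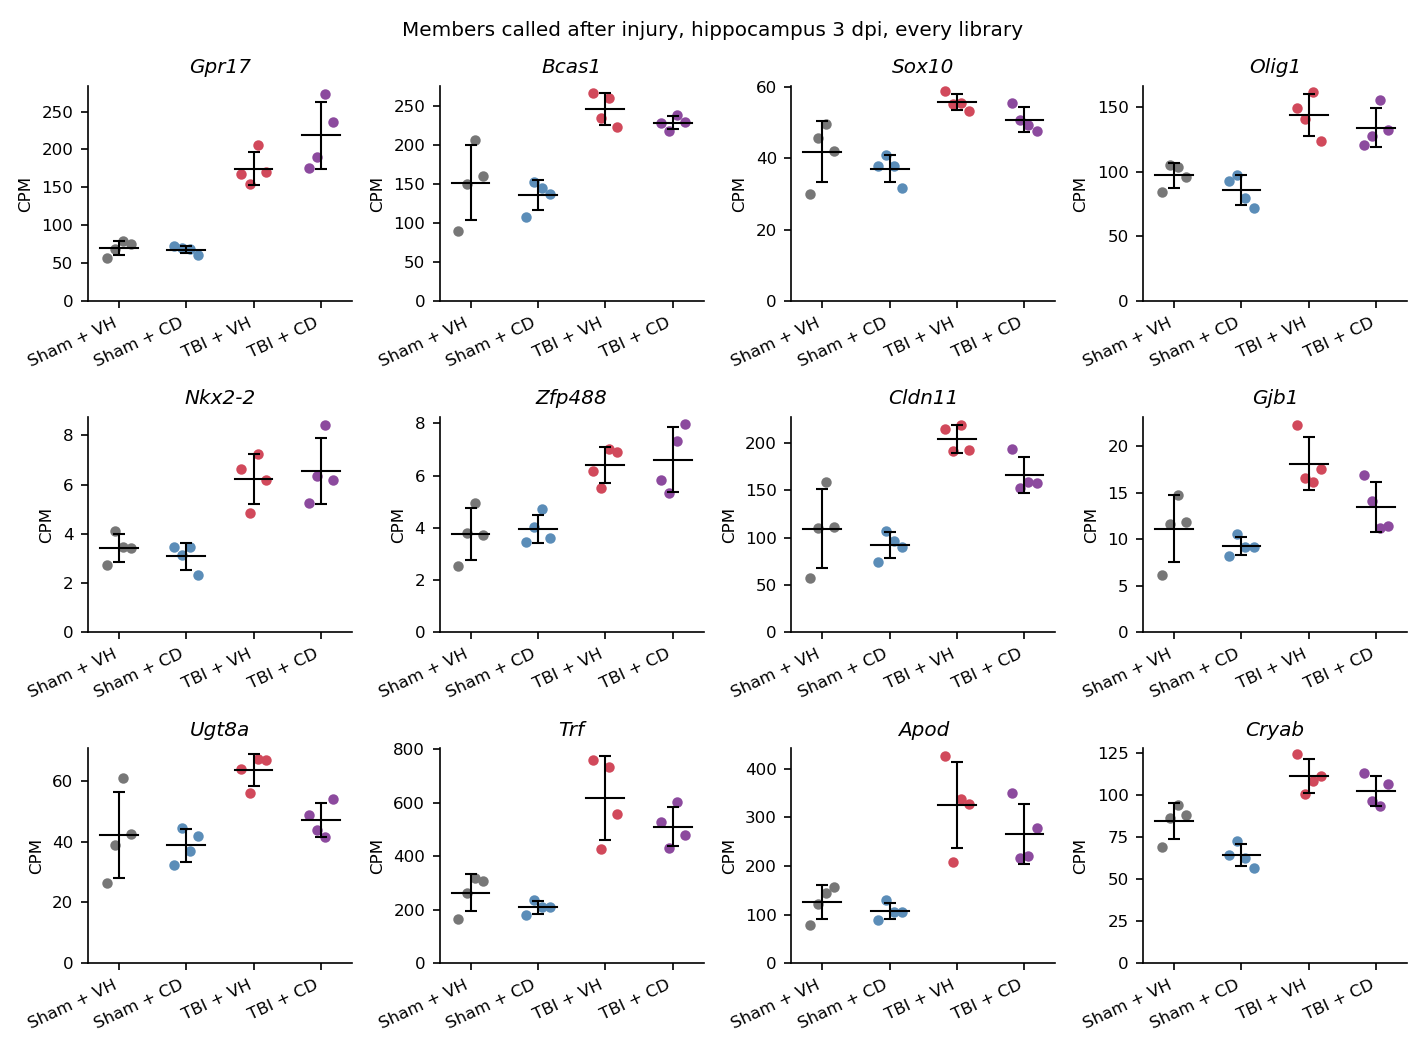
CPM of the 12 members called in TBI + VH against Sham + VH, in each of the 16 hippocampal libraries of 3 dpi, with points for libraries and bars for the mean and SD of 4. Gpr17 in the injured groups lies above 154 CPM and in the sham groups below 80, while for Ugt8a the highest Sham + VH library reaches into the injured range.

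Among the transcription factors, Nkx2-2 had the largest increase. This homeobox factor promotes the step from progenitor to differentiating cell. Its level was low, at 2.71, 4.12, 3.44 and 3.44 CPM in Sham + VH and 6.62, 4.83, 7.26 and 6.19 CPM in TBI + VH, and every injured library was above every sham library. The log2 fold change was 0.86 ± 0.17 (SE, FDR = 0.00222). Zfp488, a zinc finger partner of OLIG2, stood at 2.51, 3.78, 4.96 and 3.73 CPM in Sham + VH and 6.16, 5.54, 7.01 and 6.89 CPM in TBI + VH. Again the groups were apart, and the log2 fold change was 0.78 ± 0.18 (SE, FDR = 0.0057). Olig1, a basic helix-loop-helix factor of the whole lineage, had 84.0, 105, 104 and 95.7 CPM and 149, 141, 162 and 124 CPM, the groups were apart, and the log2 fold change was 0.57 ± 0.10 (SE, FDR = 0.00105). Sox10, which all cells of the lineage require, had 29.97, 45.7, 49.5 and 42.0 CPM in Sham + VH and 58.7, 55.3, 55.4 and 53.3 CPM in TBI + VH. All 4 injured libraries were above the sham ones, with a log2 fold change of 0.41 ± 0.11 (SE, FDR = 0.0181).

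The other 4 transcription factors were not called. Olig2 was at 24.0, 30.5, 28.7 and 30.6 CPM in Sham + VH and 33.3, 38.0, 38.1 and 31.5 CPM in TBI + VH. Its groups did not overlap and its FDR was 0.0322, but its log2 fold change of 0.31 was just under the threshold. Myrf, which turns on the myelin genes, averaged 63.8 ± 15.7 and 81.2 ± 4.11 CPM (log2 fold change 0.35, FDR = 0.136). Nkx6-2 averaged 7.39 ± 2.12 and 10.5 ± 2.16 CPM (log2 fold change 0.50, FDR = 0.127). St18, a zinc finger factor, was the only member with a negative value, -0.33 (FDR = 0.0689), from 36.4 ± 6.76 to 28.9 ± 4.05 CPM. DESeq2 called it lower, at -0.34 (FDR = 0.037), and edgeR did so without Sham + VH replicate 4 and without TBI + VH replicate 4.

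Promoters are printed for Nkx2-2 and Apod, the members that were called in both injury comparisons of the hippocampus and in both comparisons of that response with another region, and for which the promoter table has an entry. Each is the 250 bases before the gene's start in RefSeq on GRCm38.p6, both on the minus strand, written 5′ to 3′. Capitals mark CANNTG, the E-box that basic helix-loop-helix factors such as OLIG1 and OLIG2 recognise, and ACAAAG, a core recognised by SOX factors, each searched on both strands. The Nkx2-2 window lies at chr2:147186403-147186652 and holds 3 CANNTG and 0 ACAAAG. The Apod window lies at chr16:31314809-31315058 and holds 1 of each.
Nkx2-2: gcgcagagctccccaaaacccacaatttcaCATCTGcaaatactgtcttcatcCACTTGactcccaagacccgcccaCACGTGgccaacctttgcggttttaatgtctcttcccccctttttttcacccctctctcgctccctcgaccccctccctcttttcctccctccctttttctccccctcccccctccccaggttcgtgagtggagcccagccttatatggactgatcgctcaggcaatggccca
Apod: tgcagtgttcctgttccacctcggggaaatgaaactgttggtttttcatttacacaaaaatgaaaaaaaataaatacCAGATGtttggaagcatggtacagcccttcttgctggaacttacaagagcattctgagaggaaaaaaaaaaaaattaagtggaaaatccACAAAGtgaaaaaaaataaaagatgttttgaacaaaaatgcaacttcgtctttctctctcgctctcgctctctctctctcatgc
Of the 32851 promoters of that length in the table, 66.2% held CANNTG and 16.5% held ACAAAG. Of the 21 members with an entry, 12 held CANNTG and 7 held ACAAAG. A match describes letters and is not evidence of binding. The Nkx2-2 window lies within the longer gene model of the annotation, which spans chr2:147177546-147194243, and so precedes an inner start.

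Of the myelin structural genes, only Cldn11 was called. It encodes the claudin that seals the layers of the sheath. Sham + VH libraries had 56.8, 110.3, 159 and 111 CPM and TBI + VH libraries 215, 192, 219 and 192 CPM. The groups were apart, with a log2 fold change of 0.91 ± 0.20 (SE, FDR = 0.00388). The 9 others, Mbp, Mog, Mag, Mobp, Cnp, Mal, Opalin, Ermn and Tspan2, had log2 fold changes between 0.20 for Opalin and 0.54 for Mog, and FDR values from 0.0776 for Cnp to 0.546 for Opalin. Mbp was at 1588, 2747, 3862 and 2818 CPM in Sham + VH and 3702, 4007, 3308 and 3119.6 CPM in TBI + VH. Sham replicate 1 was far below and sham replicate 3 within the injured range, and the 95% interval of the change was -0.04 to 0.76.

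The number called depended on single sham libraries, in fits for which no share of all genes is given. Without Sham + VH replicate 3, 23 members were called higher, among them Mbp, Mog, Mag, Mobp, Cnp, Mal, Ermn and Tspan2. Without replicate 1, 9 were called, namely Gpr17, Bcas1, Olig1, Nkx2-2, Zfp488, Cldn11, Gjb1, Trf and Apod. Sox10 was also lost without TBI + VH replicate 1, as was Gjb1, and Cryab only without Sham + VH replicate 1. Ugt8a was lost in 6 of the 16 fits that left out a library, those without Sham + VH replicate 1, 2 or 4 or TBI + VH replicate 1, 3 or 4.

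The gap junction gene Gjb1, which codes for connexin 32 and couples oligodendrocytes to their own myelin and to each other, rose. Its values were 6.14, 11.6, 14.8 and 11.8 CPM in Sham + VH and 22.4, 16.6, 16.1 and 17.5 CPM in TBI + VH. The groups were apart by a small margin, and the log2 fold change was 0.71 ± 0.20 (SE, FDR = 0.0199). Gjc3, the gene of connexin 29, averaged 41.6 ± 13.5 and 42.3 ± 2.51 CPM and had a 95% interval of -0.35 to 0.40. Of the 3 enzymes, Ugt8a, which makes the myelin lipid galactosylceramide, was at 26.3, 39.01, 61.0 and 42.7 CPM and 64.2, 56.2, 67.3 and 67.0 CPM. It was called with a log2 fold change of 0.59 ± 0.17 (SE, FDR = 0.0269), although Sham + VH replicate 3 exceeded the lowest injured library. Fa2h, the fatty acid hydroxylase of myelin lipids, and Aspa, which breaks down N-acetylaspartate, were not called, at 0.41 (FDR = 0.159) and 0.20 (FDR = 0.635).

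Among the secreted, protease and stress proteins, 3 of 4 members were called. Trf encodes transferrin, the iron carrier that oligodendrocytes make in large amounts and that choroid plexus also makes. It was at 166, 261, 317 and 306 CPM in Sham + VH and 757, 426, 731 and 556 CPM in TBI + VH, with no overlap, and its log2 fold change was 1.23 ± 0.19 (SE, FDR = 1.82e-04). Apod encodes apolipoprotein D, a lipid carrier whose RNA astrocytes and fibroblasts can also hold. Its values were 77.4, 122, 145 and 157 CPM and 426, 209, 339 and 329 CPM. All injured libraries lay above the sham libraries, replicate 2 of TBI + VH the least, and the log2 fold change was 1.37 ± 0.22 (SE, FDR = 2.74e-04). Cryab, a small heat shock protein gene that astrocytes also express, was at 69.1, 86.5, 94.1 and 88.1 CPM and 125, 100.4, 108 and 111 CPM, without overlap. Its log2 fold change was 0.40 ± 0.09 (SE, FDR = 0.0077). Adamts4, a protease of the extracellular matrix, averaged 18.8 ± 5.62 and 22.1 ± 0.830 CPM and was not called (FDR = 0.401).

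In all, 12 members had groups that did not overlap, the called ones other than Ugt8a together with Olig2, and all 12 were higher after injury. The same held in either direction for 16.6% of all genes tested. In the annotation (GRCm38), exons of several called members overlap those of a gene on the opposite strand, by 188 bases for Gpr17 with Lims2, 278 for Nkx2-2 with Nkx2-2os, 440 for Bcas1 with Bcas1os1, 157 for Olig1 with Gm15966 and 252 for Cryab with Hspb2. Trf shares 2108 exonic bases with Gm20425 on the same strand. The strand setting of the counting is not given in the sources used here, so reads over these bases cannot be told apart.

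The candesartan-treated injured mice were compared with the same 4 Sham + VH libraries, so this comparison and the one above share their controls. Of the members 8 rose in TBI + CD and none fell, where 12.1% of all genes were called and 10.3% were called higher. Gpr17 was again the member with the smallest FDR, at 176, 190.1, 273 and 236 CPM, all above the sham libraries, with a log2 fold change of 1.64 ± 0.13 (SE, FDR = 1.97e-07). Apod was at 349.8, 216, 221 and 278 CPM (log2 fold change 1.08 ± 0.22 SE, FDR = 0.0019) and Trf at 526, 431, 602 and 478 CPM (log2 fold change 0.96 ± 0.19 SE, FDR = 0.00153), and neither overlapped Sham + VH. Nkx2-2 was at 5.27, 6.35, 8.44 and 6.17 CPM (log2 fold change 0.94 ± 0.17 SE, FDR = 9.20e-04) and Zfp488 at 5.82, 5.32, 7.31 and 7.97 CPM (log2 fold change 0.82 ± 0.18 SE, FDR = 0.00325), again without overlap.

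Bcas1 at 228, 218, 238 and 229 CPM (log2 fold change 0.59 ± 0.17 SE, FDR = 0.0192) and Olig1 at 120.4, 128, 156 and 132 CPM (log2 fold change 0.46 ± 0.10 SE, FDR = 0.0044) also lay above every Sham + VH library. Cldn11, at 194, 153, 159 and 157 CPM with replicate 1 apart from the rest, passed the thresholds narrowly (log2 fold change 0.60 ± 0.20 SE, FDR = 0.0438), and its lowest injured library was under Sham + VH replicate 3. This call was lost in 13 of the 16 fits that left out a library and held only without Sham + VH replicate 3, Sham + CD replicate 1 or TBI + VH replicate 2. Sox10, Gjb1, Ugt8a and Cryab were not called, at 0.28, 0.27, 0.16 and 0.28 on the log2 scale, with FDR values of 0.101, 0.388, 0.591 and 0.0534. In this group they stood at 55.5, 50.8, 49.3 and 47.5 CPM for Sox10, 17.0, 14.1, 11.3 and 11.4 for Gjb1, 49.0, 43.8, 41.6 and 54.2 for Ugt8a and 113, 96.7, 93.2 and 106 for Cryab, each overlapping Sham + VH. The 9 other structural genes had log2 fold changes between -0.17 for Opalin and 0.17 for Cnp, and Pdgfra -0.01 (95% interval -0.16 to 0.14). Gpr17 had 337 ± 49.4 counts per 100 Pdgfra counts. The median of the members was 0.17, and 8 members, those called other than Cldn11 together with Cspg4, did not overlap Sham + VH, as 19.5% of all genes did not.

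No member differed between TBI + CD and TBI + VH by the thresholds, and 0.00% of all genes were called. At an unadjusted p under 0.05 in edgeR there were 7 members, beside 732 of the 16756 genes tested, and DESeq2 called 0 members. Of the 32 members 27 had a negative log2 fold change, with a median of -0.30, and all 10 structural genes did, between -0.46 for Ermn and -0.28 for Cnp. Enpp6, Mal, Ermn, Tspan2, Aspa, Ugt8a and Adamts4 were lower in every TBI + CD library than in any TBI + VH library, 7 of 32 members where 2.75% of all genes had no overlap. Ugt8a differed by -0.44 (95% interval -0.80 to -0.08, FDR = 0.999) and Mal by -0.46 (-0.90 to -0.01, FDR = 0.999). Gpr17 had the opposite sign at 0.32 (0.06 to 0.59), with overlapping groups and an FDR of 0.999.

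In sham mice Cryab was lower with candesartan and no other member was called, where 1.50% of all genes were called. Cryab was at 64.3, 72.6, 62.4 and 56.7 CPM in Sham + CD, and the log2 fold change was -0.40 ± 0.10 (SE, FDR = 0.0421), although the highest Sham + CD library was above Sham + VH replicate 1. The call was lost in 9 of the 16 fits that left out a library, each of the 8 without a library of these groups and that without TBI + VH replicate 4, and also with the replicate block, which put it at 0 members called. The median of the members was -0.18, with 28 of 32 negative and 0 without overlap, beside 8.78% of all genes without overlap. The test of whether candesartan altered the injury response called 0 members and 0.00% of all genes, and DESeq2 called 0 members. This test gave 0 members at an unadjusted p under 0.05 in edgeR, beside 2196 of the 16756 genes tested. Its largest positive value was that of Gpr17, 0.37 (95% interval -0.01 to 0.75, FDR = 0.395). The largest negative value was that of Adamts4, -0.377, and the smallest FDR of the members was that of Cryab, 0.384.

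Other genes of the lineage, from lists of genes that are not members, were counted in the same way in TBI + VH. The lists were chosen with earlier results of these data known, so they are not independent of the members' result. Over all genes tested in this comparison, 8.99% were called higher. Of 14 other progenitor genes 8 rose and none fell, with a median of 0.42, among them Neu4, a sialidase (0.88), Gpr37l1, which astrocytes share (0.69), Matn4 (0.38) and Ptprz1 (0.38). Of 10 other premyelinating genes 3 rose, Itpr2 (0.72), Ddr1 (0.66) and Sox8 (0.38), with a list median of 0.28. Of 20 other mature oligodendrocyte genes 6 rose and none fell, with a median of 0.37. The serine protease gene Klk6 had the largest change there at 4.76, from 0.846 ± 0.422 to 22.9 ± 11.1 CPM. Next were Gsn, gelsolin, which microglia also make (1.07), Gal3st1, which makes sulfatide (0.59), and Gamt of creatine synthesis (0.47). The part of astrocytes and other cell types in the changes of these lists was not tested.

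Of 15 tested growth factor and receptor genes of the lineage 3 rose, Lif (1.72), Cntf (1.53) and Notch1 (0.51), with a list median of -0.07. Lif and Cntf were at low levels, where log2 changes are less precise. Lif averaged 0.999 ± 0.261 CPM in Sham + VH and 3.28 ± 1.25 in TBI + VH, and Cntf 0.356 ± 0.0892 and 1.02 ± 0.452. In TBI + CD the counts that rose were 10 of 14 progenitor, 5 of 10 premyelinating and 4 of 20 mature genes, with list medians of 0.43, 0.25 and 0.06. The 4 mature genes were Gamt, Gsn, Klk6 and Pllp. Of the growth factor and receptor genes Lif, Notch1 and Fgfr2 were called in that group, 2 higher and 1 lower, with a list median of -0.11. In Sham + CD no gene of these lists was called but Bmp7, which was lower.

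Genes of the cell cycle and of other cell types moved in the same libraries. Which cells held the cell cycle RNA, those of the lineage or others, was not tested. All 10 cell cycle genes rose in TBI + VH, with a median log2 fold change of 3.23, from Mcm5, a licensing factor of replication, at 0.82 to Bub1, a checkpoint kinase, at 3.69. All 10 microglia and macrophage genes rose, with a median of 1.91 and Cd68 at 2.31, and 7 of 8 astrocyte genes, with Vim at 3.85 and Gfap at 3.62. None of 10 neuronal, 10 pericyte and fibroblast or 4 tested Schwann cell genes was called. In TBI + CD the same lists had 10, 10, 6, 0, 0 and 1 called, the last being Prx. The summed microglia level was 304 to 325 CPM over the Sham + VH libraries and 723 to 1171 over the TBI + VH ones. For astrocytes the ranges were 3843 to 4632 and 7383 to 10005, and for the cell cycle 11.5 to 17.4 and 29.95 to 133. Astrocytes are known to express Apod and Cryab, and the part of other cell types in the members' changes was not tested.

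Choroid plexus RNA varied between the hippocampal libraries of 3 dpi and differed between groups. The 14 choroid plexus genes summed to between 219 and 6808 CPM in Sham + VH and between 35.5 and 178 in TBI + VH. With candesartan the ranges were 70.1 to 126 (sham) and 28.2 to 2760 (injured). All 14 were called lower in TBI + VH, with a median of -4.80, from Slc13a4 at -2.28 to Tmem72 at -6.41. In TBI + CD 3 were called, Kl, Slc13a4 and Sostdc1, and in Sham + CD 13. With their mean log2 level as a covariate, 3 members were called in TBI + VH and 3 in TBI + CD. They were Gpr17, Trf and Apod in each, with log2 fold changes of 1.01, 1.01 and 1.47 for TBI + VH. The share of all genes called with this covariate was not kept, so the fall in members cannot be set beside it. The covariate itself differs between the groups, and the part of choroid plexus RNA in the lost calls was not tested. Among Sham + VH libraries, replicate 1, lowest in most members, held the most choroid plexus RNA. Replicate 3, highest in most members, held the least. In TBI + CD, replicate 1 held both the most choroid plexus RNA and the largest structural sum, 5747 CPM. Sham + CD, low in choroid plexus RNA throughout, had structural sums of 3287 to 4647. A link between the 2 sums was not tested.

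In the thalamus and hypothalamus at both times and in the hippocampus at 29 dpi, no member was called in any comparison of groups. In the thalamus at 3 dpi the injury comparisons called 0.298% of all genes with vehicle and 0.418% with candesartan, and in the hypothalamus 0.00% in each. At 29 dpi the shares were 0.529% and 0.119% in the hippocampus, 0.00% and 0.00% in the thalamus, and 0.00583% and 0.00% in the hypothalamus. Members at an unadjusted p under 0.05 in edgeR numbered 0 to 3 per injury comparison, beside 419 to 1343 of the 16762 to 17165 genes tested. DESeq2 called 0 members except for St18 in the hippocampus of TBI + VH at 29 dpi. Comparisons of TBI + CD with TBI + VH called 0.00% of all genes in each of these sets, and DESeq2 called 0 members. Their members at an unadjusted p under 0.05 in edgeR numbered 0 to 7, beside 344 to 893 of the 16762 to 17165 genes tested. The 7 were in the hippocampus at 29 dpi, beside 893 of the 16832 genes tested there. In that set 30 members were positive and 2 negative, with a median of 0.185, and all 10 structural genes were positive. These signs were opposite to those of most members in the hippocampus at 3 dpi. Microglia genes rose in some of these sets without a called member, 8 of 10 in the thalamus at 3 dpi in each injured group, and 5 of 10 in the hippocampus of TBI + VH at 29 dpi.

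**Figure D3:**
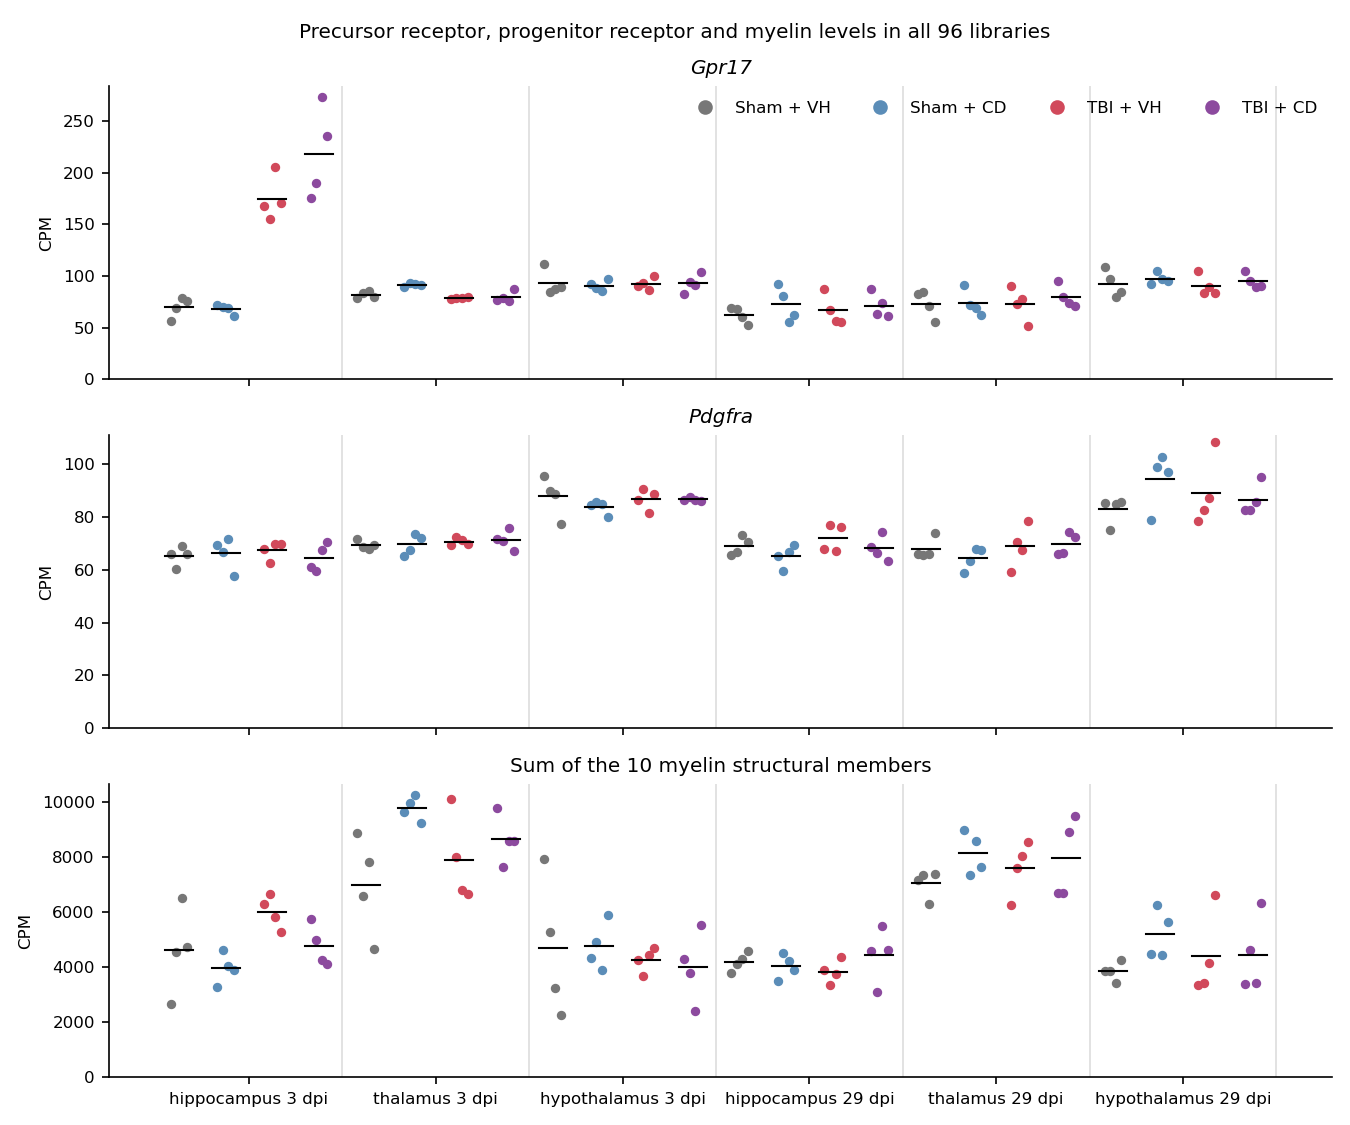
CPM in all 96 libraries of Gpr17 (top), Pdgfra (middle) and the sum of the 10 myelin structural members (bottom), by region, time point and group, with points for libraries and lines for group means. The 2 injured groups of the hippocampus at 3 dpi stand apart in Gpr17, with means of 175 and 219 CPM where the other groups have means of 62.3 to 97.4, Pdgfra has no such group, and the myelin sum is highest in the thalamus.

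Gpr17 had its highest means in the hippocampus at 3 dpi after injury, 219 ± 44.3 CPM in TBI + CD and 175 ± 21.9 in TBI + VH, groups that overlap. The next of the 24 groups was Sham + CD of the hypothalamus at 29 dpi, with 97.4 ± 5.45 CPM, on scales set separately in each of the 6 sets. In the thalamus at 3 dpi Gpr17 was at 79.1, 83.7, 85.5 and 79.3 CPM in Sham + VH and 78.1, 79.0, 78.9 and 79.3 CPM in TBI + VH. Hypothalamic libraries held 111, 84.8, 87.4 and 89.4 CPM and 90.5, 92.8, 86.3 and 100.1 CPM. The groups overlapped within each of these regions.

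The response to injury itself differed between regions for several members at 3 dpi, as tested in 1 fit over the 48 libraries of that time. Against the thalamus, 3 members had a larger log2 change in the hippocampus and 1 a smaller one, where 3.88% of all genes were called. The differences were 1.35 ± 0.14 (SE, FDR = 1.09e-08) for Gpr17, 1.02 ± 0.21 (SE, FDR = 0.00134) for Nkx2-2 and 1.14 ± 0.32 (SE, FDR = 0.0328) for Apod. In the thalamus Nkx2-2 averaged 8.00 ± 0.488 CPM in Sham + VH and 7.05 ± 0.276 in TBI + VH, and Apod 198 ± 56.3 and 229 ± 57.9. For St18 the difference was -0.58 ± 0.13 (SE, FDR = 0.0047), with hippocampal means of 36.4 ± 6.76 and 28.9 ± 4.05 CPM and thalamic means of 11.3 ± 0.629 and 13.3 ± 0.211 CPM. Against the hypothalamus 6 members had a larger change in the hippocampus, where 5.82% of all genes were called. They were Gpr17 at 1.32 ± 0.14 (SE, FDR = 7.64e-09), Olig1 at 0.72 ± 0.21 (SE, FDR = 0.0268), Nkx2-2 at 0.83 ± 0.21 (SE, FDR = 0.00723), Zfp488 at 0.84 ± 0.21 (SE, FDR = 0.00894), Trf at 1.42 ± 0.33 (SE, FDR = 0.00412) and Apod at 1.29 ± 0.33 (SE, FDR = 0.00785). Without replicate 4 of the hypothalamic Sham + VH libraries, which had the lowest value of 30 members, 12 members were called.

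The hippocampal response also differed between time points. Of the 32 members 9 had a larger log2 change at 3 dpi than at 29 dpi and none a smaller one, where 3.16% of all genes were called. They were Gpr17 (1.22 ± 0.22 SE, FDR = 9.94e-04), Trf (1.16 ± 0.24 SE, FDR = 0.00344), Nkx2-2 (1.10 ± 0.22 SE, FDR = 0.00299), Apod (0.96 ± 0.27 SE, FDR = 0.0471) and Ugt8a (0.86 ± 0.23 SE, FDR = 0.0321). Bcas1 followed (0.77 ± 0.22 SE, FDR = 0.0424), with Olig1 (0.70 ± 0.16 SE, FDR = 0.0104), Olig2 (0.62 ± 0.14 SE, FDR = 0.00987) and Cryab (0.55 ± 0.14 SE, FDR = 0.0247). Leaving out 1 library gave between 5 and 14 members, 14 without Sham + VH replicate 3 of 3 dpi, and 5 without Sham + VH replicate 1, TBI + VH replicate 1 or TBI + VH replicate 3 of 3 dpi or TBI + VH replicate 2 of 29 dpi. The cohorts also differed in how candesartan or vehicle was delivered.

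At 29 dpi the hippocampal values nearest to a call were those of St18. They were 36.3, 37.8, 39.8 and 35.3 CPM in Sham + VH and 31.1, 28.6, 26.0 and 31.5 CPM in TBI + VH, every injured library below every sham library, as 3.65% of all genes were apart in either direction. The log2 fold change was -0.35 ± 0.08 (SE, FDR = 0.0519). In TBI + CD they were 34.4, 30.7, 31.0 and 35.3 CPM, with a log2 fold change of -0.19 ± 0.07 (SE, FDR = 0.596). Apod averaged 127 ± 17.7 CPM in Sham + VH, 169 ± 36.5 in TBI + VH and 180.5 ± 19.0 in TBI + CD, at log2 fold changes of 0.41 ± 0.13 (SE, FDR = 0.307) and 0.51 ± 0.13 (SE, FDR = 0.253). Gpr17 was 62.3 ± 7.75 CPM in Sham + VH and 66.7 ± 14.8 in TBI + VH.

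**Figure D4:**
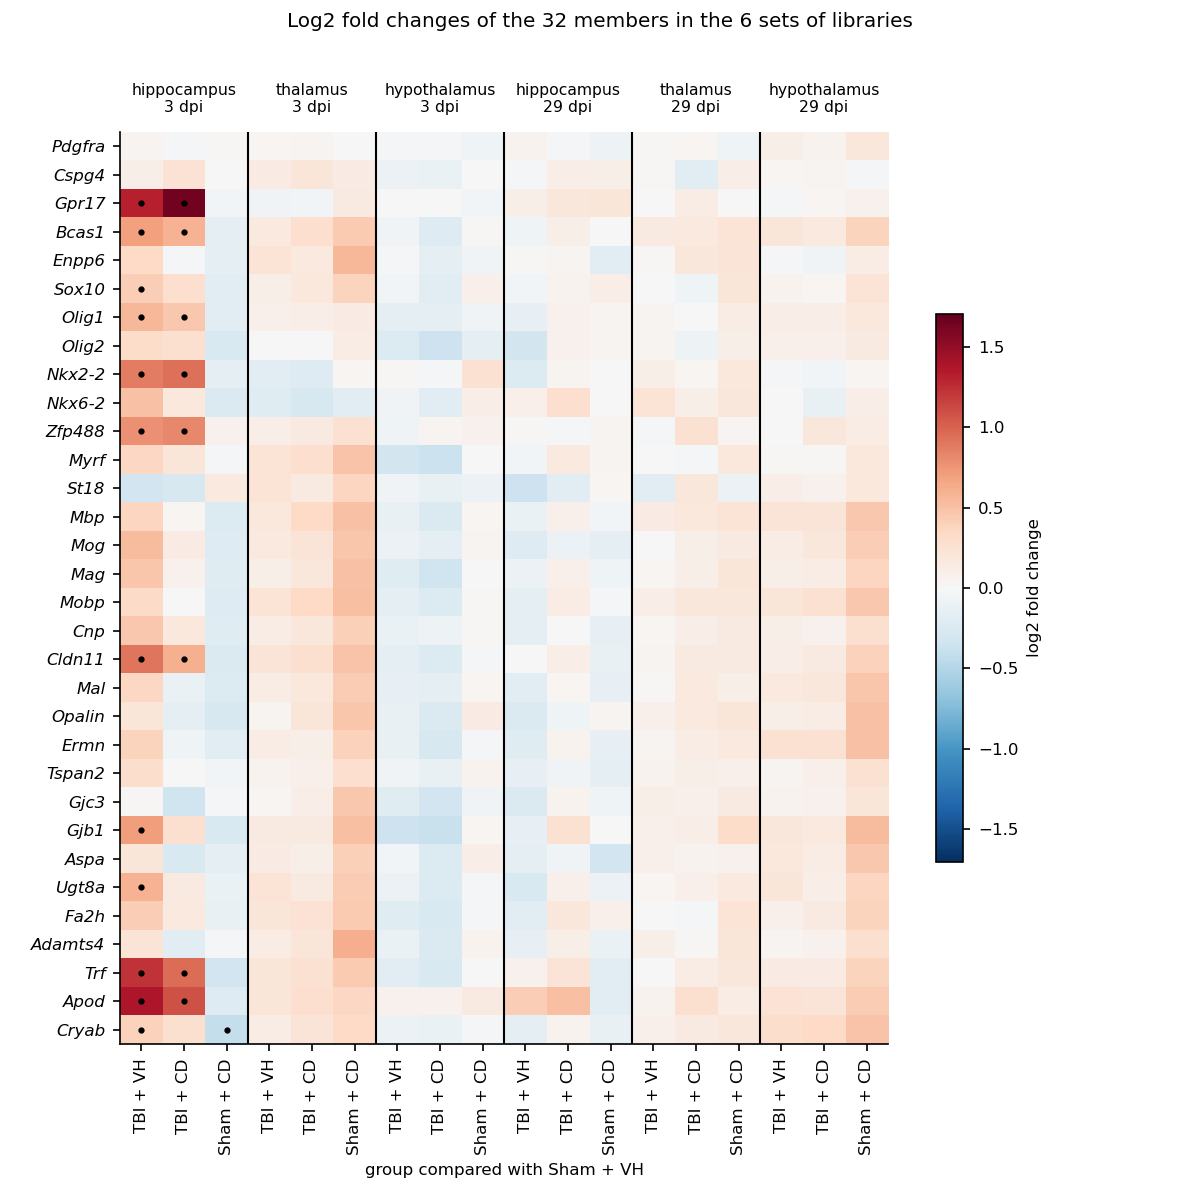
Log2 fold change from Sham + VH of each of the 32 members (rows, by role), with columns for the other 3 groups within each of the 6 sets, red for higher and blue for lower values. A dot marks a called member, and the 21 dots lie in the hippocampus at 3 dpi, 12 in TBI + VH, 8 in TBI + CD and 1 in Sham + CD, while the Sham + CD columns of the thalamus at 3 dpi and the hypothalamus at 29 dpi are pale red in most rows without a dot.

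Sham mice on candesartan had higher values of many members than vehicle in 2 sets without any being called, and 0.00% of all genes were called in each set but the hippocampus at 3 dpi. In the thalamus at 3 dpi 31 of 32 members were positive, with a median log2 fold change of 0.42. In edgeR 24 members had an unadjusted p under 0.05, beside 1152 of the 16762 genes tested. DESeq2 called St18, Gjc3 and Adamts4 there. Adamts4 had the largest change, from 31.9, 33.0, 29.5 and 21.4 CPM in Sham + VH to 40.9, 46.8, 45.5 and 44.2 CPM in Sham + CD (log2 fold change 0.61 ± 0.13 SE, FDR = 0.494). Mbp was at 5111, 3727, 4556 and 2670.1 CPM and 5647, 5742, 5953 and 5315 CPM (log2 fold change 0.50 ± 0.17 SE, FDR = 0.606). Both had groups that did not overlap, as had 21 members, all higher, beside 4.90% of all genes in either direction. Replicate 4 of these Sham + VH libraries had the lowest value of 25 members and replicate 1 the highest of 24.

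In the hypothalamus at 29 dpi 31 of 32 members were also positive in Sham + CD, with a median of 0.32. Of these genes 9 had an unadjusted p under 0.05 in edgeR, beside 2269 of the 17165 genes tested, and DESeq2 called 0 members. Here 10 members did not overlap, all higher, beside 9.25% of all genes. Gjb1 had the largest value, 0.54 ± 0.22 (SE, FDR = 0.356), and Cryab was at 0.49 ± 0.14 (SE, FDR = 0.356). The remaining Sham + CD medians were 0.01 in the hypothalamus at 3 dpi and -0.06 in the hippocampus at 29 dpi. That of the thalamus at 29 dpi was 0.17. In that order 1, 0 and 2 members had an unadjusted p under 0.05 in edgeR. Among all genes these were 361 of 16946, 810 of 16832 and 540 of 16957. DESeq2 called 0 members in each.

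Without injury or drug, the members also differed by region. The labels do not say which regions came from 1 mouse, so these tests treat all libraries as separate. In Sham + VH at 3 dpi 19 were higher in the thalamus than in the hippocampus and 1 was lower, where 40.9% of all genes were called and 21.5% were called higher. At 29 dpi 25 were higher and 1 lower, where 39.3% were called and 19.4% called higher. The median log2 difference was 0.53 and 0.70 at the 2 times. Thalamus against hypothalamus gave 18 higher and 1 lower at 3 dpi, beside 28.6% called and 14.7% called higher, and 24 higher and 2 lower at 29 dpi, beside 32.9% and 15.6%. Hypothalamus against hippocampus gave 3 higher and 1 lower at 3 dpi, beside 46.7% called and 23.5% called higher, and 3 higher and 2 lower at 29 dpi, beside 45.0% and 22.8%.

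**Figure D5:**
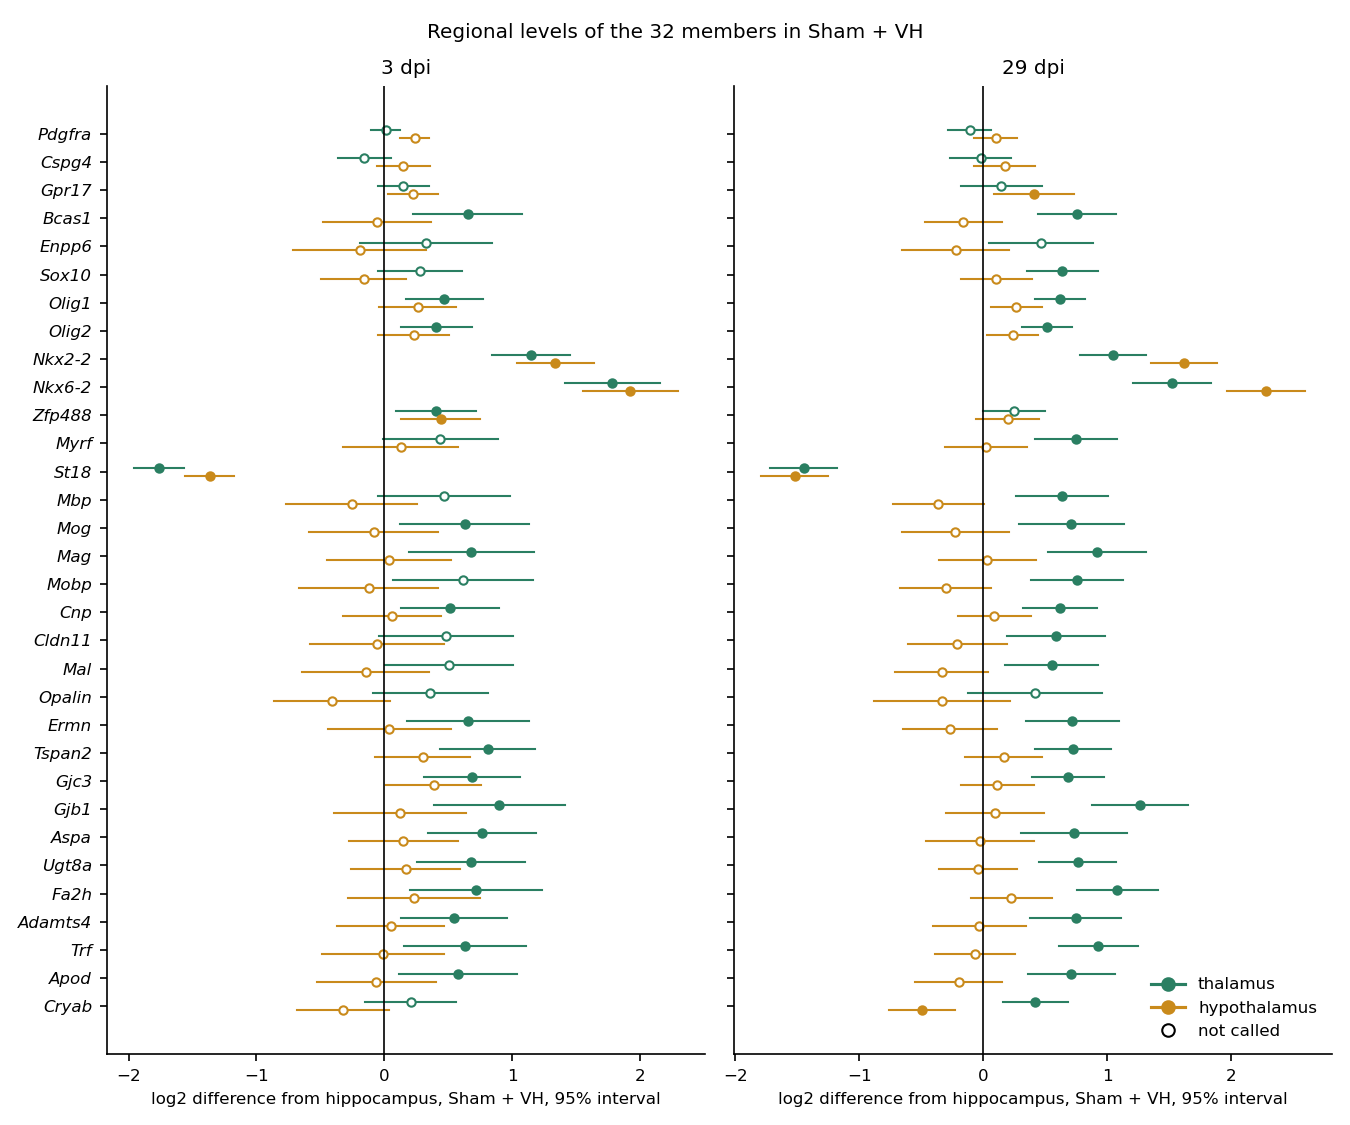
Log2 difference of each member from the hippocampus in Sham + VH, with 95% intervals, for the thalamus (green) and hypothalamus (ochre) at 3 dpi (left) and 29 dpi (right), filled where called. St18 lies to the left in both regions, at -1.76 and -1.37 at 3 dpi, Nkx2-2 and Nkx6-2 lie to the right in both, and most other members lie to the right in the thalamus and near 0 in the hypothalamus.

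At 29 dpi 9 of the 10 myelin structural genes, all 3 enzymes and both gap junction genes were higher in the thalamus than in the hippocampus. Fa2h was higher there by 1.08 ± 0.16 (SE, FDR = 3.06e-07), Gjb1 by 1.26 ± 0.19 (SE, FDR = 4.11e-07) and Mag, an adhesion protein of the inner sheath, by 0.92 ± 0.19 (SE, FDR = 1.09e-04). Mbp was at 4286, 4489.7, 3691 and 4429 CPM in the thalamus, 2373, 2723, 2775 and 2991 CPM in the hippocampus and 2079, 2109.6, 1902 and 2368 CPM in the hypothalamus, on a scale set over the 48 libraries of 29 dpi. All thalamic libraries were above all others, and all hypothalamic ones were below the hippocampal ones, the nearest by a few CPM. At 3 dpi the Mbp difference between thalamus and hippocampus was 0.47 ± 0.25 (SE, FDR = 0.118), and the sham libraries of that time were more spread. Pdgfra was not called in any of the 6 region comparisons, at 72.7 ± 3.88, 67.5 ± 3.92 and 77.9 ± 4.85 CPM in hippocampus, thalamus and hypothalamus at 29 dpi.

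The region counts of 3 dpi leaned on the libraries used. With only the 12 Sham + VH libraries in the fit, 6 members were called between thalamus and hippocampus, Nkx2-2, Nkx6-2, St18, Tspan2, Gjc3 and Aspa, and 1, St18, between thalamus and hypothalamus. Leaving out 1 library gave 8 to 25 in thalamus against hippocampus, 25 without hippocampal replicate 3, 8 without hippocampal replicate 1 and 9 without thalamic replicate 1. In thalamus against hypothalamus it gave 3 to 26, the 26 without hypothalamic replicate 1. The 3 came without hypothalamic replicate 3, and 4, 5 and 7 came without hypothalamic replicate 4, thalamic replicate 1 and thalamic replicate 3. In hypothalamus against hippocampus it gave 4 to 8, the 8 without hypothalamic replicate 4. At 29 dpi the counts stayed within 26 to 27, 4 to 6 and 26 to 27.

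The transcription factors St18, Nkx2-2 and Nkx6-2 had regional orders of their own. St18 was highest in the hippocampus, at 35.7, 36.4, 49.7 and 33.6 CPM at 3 dpi, with 10.9, 11.4, 12.3 and 11.0 CPM in the thalamus and 16.3, 13.1, 15.7 and 15.2 CPM in the hypothalamus, and the 3 regions did not overlap. Its log2 differences from the hippocampus were -1.76 ± 0.10 (SE, FDR = 1.60e-19) and -1.37 ± 0.09 (SE, FDR = 2.04e-16) at 3 dpi and -1.45 ± 0.13 (SE, FDR = 2.56e-12) and -1.52 ± 0.13 (SE, FDR = 5.59e-13) at 29 dpi. Nkx6-2, a homeobox factor of late oligodendrocytes, was at 40.3, 37.3, 46.2 and 41.0 CPM in the hypothalamus, 25.2, 31.1, 19.0 and 22.7 CPM in the thalamus and 8.39, 8.76, 8.73 and 8.06 CPM in the hippocampus at 29 dpi. The regions were apart there, and hypothalamus exceeded hippocampus by 2.28 ± 0.16 (SE, FDR = 3.34e-16) and by 1.93 ± 0.18 (SE, FDR = 3.60e-12) at 3 dpi. Nkx2-2 was also higher in the hypothalamus, by 1.34 ± 0.15 (SE, FDR = 2.66e-10) at 3 dpi and 1.62 ± 0.13 (SE, FDR = 5.71e-14) at 29 dpi. At 29 dpi these were the 2 members lower in the thalamus than in the hypothalamus, while both were higher in the thalamus than in the hippocampus.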

How the data were processed

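Total RNA of 96 hippocampal, thalamic and hypothalamic samples was read as stranded mRNA libraries. The authors aligned reads with MapSplice to mm10, counted them per gene with HTSeq 0.9.1 and deposited raw counts in 2 tables, one for each time point (the submitters' processing notes also name DESeq2 1.16.1). The annotation and strand setting of the counting are not given in the sources used here. The 32 members and all gene lists were chosen with earlier results of these data known.

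Genes were filtered with filterByExpr, scaled by TMM and tested with edgeR 4.0.16 (R 4.3.3), glmQLFit and glmQLFTest, on the 16 libraries of a region and time point, or on the 48 of a time point for regions. A call needed both a Benjamini-Hochberg FDR under 0.05 and a log2 change beyond 0.32 in either direction. The scripts were tested on simulated data. DESeq2 1.42.0, RLE factors, no filter, only the groups compared, covariates, a replicate block and leaving out each library were alternatives. For these only the members' results were kept, so their counts stand without a share of all genes. Members called in the hippocampus at 3 dpi were given by library. For other lists the 2 largest and 2 smallest called changes were named. Genes named outside this rule (TBI + CD and Sham + CD list genes, and single members in other sets) were chosen after their values were seen. No 2 libraries held identical counts in 144 pairs within groups. Replicate numbers were shared between groups, but in 0 of 30 comparisons did every same-numbered pair correlate above 0.1 (range -0.60 to 0.73). They were not treated as pairs, although this rule cannot exclude that some same-numbered libraries share a source. Promoters came from RefSeq on GRCm38.p6, with an entry for 21 of 32 members. Gene positions and exon overlaps came from the GRCm38 annotation given. A few list genes and the results that need them are not reported here.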

Additional observations from a re-analysis of the deposited data

Results flagged for a closer look

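For Cldn11 in the hippocampus at 3 dpi, TBI + CD replicate 1 stood apart from the other 3 libraries of its group at 194 CPM, with a gap of 0.856 of the group's range, beyond Dixon's critical value. This was 1 of 48 combinations of a gene and a group examined. Chance gives about 5% of such combinations, though those that share libraries are not independent. The cause was not tested.

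Differences in the injury response of TBI + VH against Sham + VH passed the test of the difference itself (edgeR). At 3 dpi the hippocampal log2 change exceeded the thalamic one by 1.35 for Gpr17, 1.02 for Nkx2-2 and 1.14 for Apod, and for St18 it was lower, at -0.58. It exceeded the hypothalamic change by 1.32 for Gpr17, 0.72 for Olig1, 0.83 for Nkx2-2, 0.84 for Zfp488, 1.42 for Trf and 1.29 for Apod. The hippocampal change at 3 dpi exceeded that at 29 dpi by 1.22 for Gpr17, 0.77 for Bcas1, 0.70 for Olig1, 0.62 for Olig2 and 1.10 for Nkx2-2. The same difference was 0.86 for Ugt8a, 1.16 for Trf, 0.96 for Apod and 0.55 for Cryab.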

How the results depend on the processing

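Of the counts of called members under alternatives, 642 stayed within 1.5 times the main count and 34 did not. Many main counts were 0 and stayed 0, and many fits left out a library of a group not compared. The 642 therefore overstates how steady the counts above 0 were, and their ranges are given below. Of single members' changes in the hippocampus at 3 dpi 415 kept their call, 45 lost it and 0 reversed. With the choroid plexus covariate the hippocampal counts at 3 dpi went from 12 to 3 in TBI + VH, from 8 to 3 in TBI + CD and from 1 to 0 in Sham + CD. That last count was also 0 with only the groups compared and with the replicate block, which moved no other count beyond 1.5 times. In 0 of 30 comparisons did each library correlate best with its own number. This rule asks every library of a group at once, so it cannot exclude a partial block by replicate number. DESeq2 called 3 in the thalamus at 3 dpi in Sham + CD, where edgeR called 0, and St18 in the hippocampus at 29 dpi in TBI + VH, 1 where edgeR called 0, as did RLE factors (1). In Sham + VH at 3 dpi, a fit of those 12 libraries alone called 6 in place of 20 members in thalamus against hippocampus and 1 in place of 19 in thalamus against hypothalamus, with fewer samples in the fit.

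Leaving out 1 library gave, for the hippocampus at 3 dpi, 9 (without Sham + VH replicate 1) to 23 (without Sham + VH replicate 3) in TBI + VH, 7 to 10 in TBI + CD and 0 to 1 in Sham + CD. TBI + VH at 29 dpi gave 0 to 1, the 1 without Sham + CD replicate 1. Region comparisons at 3 dpi gave 8 to 25, 4 to 8 and 3 to 26, in the order thalamus against hippocampus, hypothalamus against hippocampus and thalamus against hypothalamus, with the libraries named above. The hippocampal injury response minus that of the thalamus gave 3 to 5, minus that of the hypothalamus 5 to 12 (12 without hypothalamic Sham + VH replicate 4), and 3 dpi minus 29 dpi 5 to 14. A covariate added after seeing the data, the mean log2 level of the structural members, called 9 members in TBI + VH, with Gjc3 and St18 lower at -0.33 and -0.41, and 9 in TBI + CD, with Gjc3 lower at -0.38. It is circular for the structural members. Totals were lowest in the hippocampus at 29 dpi, down to 6663629 counts, which limits the precision for low members there.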
